A study of Homo sapiens with 41 samples.

Results

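RNA polymerase II (PolII) was called at 842 regions of the genome in both libraries of MDA-MB-231 cells with a hairpin against HDAC6 (shHDAC6) and in neither library of cells with a control hairpin (shCtrl). These gained regions are 3.32% of the 25349 regions formed by merging the PolII peaks of the 4 hairpin lists on chromosomes 1 to 22 and X. The reverse pattern, a peak in both shCtrl lists and in neither shHDAC6 list, held at 1996 regions (7.87%), and 16324 regions had a peak in all 4 lists. The balance depends on the lists: at equal list length 1125 regions were gained and 1208 lost, and with a −log10 q of 5 or more in all 4 lists 879 were gained and 196 lost. A further 482 regions had a peak in both shHDAC6 lists and in 1 shCtrl list, and 1611 had a peak in 1 shHDAC6 list and in no shCtrl list. The count depends on both shHDAC6 libraries: without replicate 1 it was 1671 and without replicate 2 it was 1650. The members were chosen by presence and absence of a called peak in these 4 lists, so PolII counts, widths and strengths from these lists are given as descriptions without a test.

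MDA-MB-231 is a human triple-negative breast cancer line of epithelial origin, and HDAC6 is a mostly cytoplasmic deacetylase whose main known substrate is α-tubulin. Peak lists of 32 of the 41 samples were used, and the other 9 were not analysed here. Parental cells were left as controls (Ctrl) or given the HDAC6 inhibitor Nexturastat A (NextA) at 5 µM for 2 days, and hairpin cells carried shCtrl or shHDAC6. Each library came from 100000 cells. PolII was mapped with an antibody to the C-terminal domain of Rpb1 (clone 4H8) in 2 libraries of each of the 4 groups, and accessible chromatin by ATAC-seq in 3 libraries of each. HDAC6 was mapped by ChIP in 2 Ctrl, 2 NextA and 2 shHDAC6 libraries and by CUT&Tag in 2 Ctrl libraries, and acetylated histone H3 (a pan-acetyl antibody) in 2 Ctrl and 2 NextA libraries. The labels do not say how many hairpins or clones were used, nor that libraries of a group came from separate cultures, so p-values here reflect only how far these libraries vary, which may be technical. RNA was not measured in these lists, so the degree of knockdown was not checked.

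Rpb1 is the largest subunit of PolII, and its C-terminal domain is a long repeat that is phosphorylated in turn as the enzyme starts, pauses and elongates. In most cell types PolII signal is highest just downstream of gene starts, where the enzyme pauses, and lower across gene bodies. It also appears past the ends of genes and at enhancers, where short unstable RNAs are made. The 4H8 antibody binds the domain in several phosphorylation states, so a peak does not tell a paused enzyme from an elongating one.

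The hairpin PolII lists held 21570 and 21327 peaks in shCtrl and 19519 and 19556 in shHDAC6. All 4 were called on p, from a −log10 p of 2, and all 4 had gaps in the caller's peak numbering, which shows that peaks were removed after calling. The share of numbers kept was 56.6% and 50.6% in shCtrl and 72.7% and 75.1% in shHDAC6. Of the 842 gained regions, 79 (9.38%) had no missing peak number between the flanking peaks of both shCtrl lists, and of the 1996 lost regions 437 (21.9%) had none in the shHDAC6 lists. At 2 gained regions at a chromosome's edge, TUBB8 and WASH3P, the numbers could not be counted. At the rest a shCtrl peak may have been called and then removed, so the absence of a shCtrl peak there does not show that PolII was absent. Genes of the mesenchymal and basal-like state that this line is known for had a PolII peak within 1 kb of an end in all 4 lists for 5 of 8 genes, against 3 of 8 luminal and receptor genes. Of 20 leukocyte markers 4 had a peak in all 4 lists and 15 in none, and of 20 neuron markers 8 had one in all 4 and 10 in none. HDAC6 itself (chromosome X, 48801398 to 48824982) had a peak in all 4 lists and is not a member. The fold at HDAC6 was 3.72 and 3.10 in shCtrl and 6.21 and 5.82 in shHDAC6. The median fold over regions in all 4 lists was also higher in shHDAC6, at 5.06 and 5.23 against 4.39 and 4.63 in shCtrl. Folds were not normalised between lists, and a change at HDAC6 was not tested.

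Of the 842 gained regions, 284 (33.7%) lay within 1 kb of an end of a RefSeq gene, 423 (50.2%) inside a gene and away from its ends, and 135 (16%) between genes. Lost regions were divided in a similar way, with 546 (27.4%) at gene ends, 1173 (58.8%) inside genes and 277 (13.9%) between genes. Regions in all 4 lists lay mostly at gene ends, with 12527 (76.7%) there, 2589 (15.9%) inside genes and 1208 (7.40%) between genes. The gained regions were short. Their median width was 596.5 bp, against 671 bp for lost regions and 1593 bp for regions in all 4 lists, and they covered 0.647 Mb in all. The widest was 3880 bp, at the lncRNA gene LOC124902227 on chromosome 9.

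**Figure D1:**
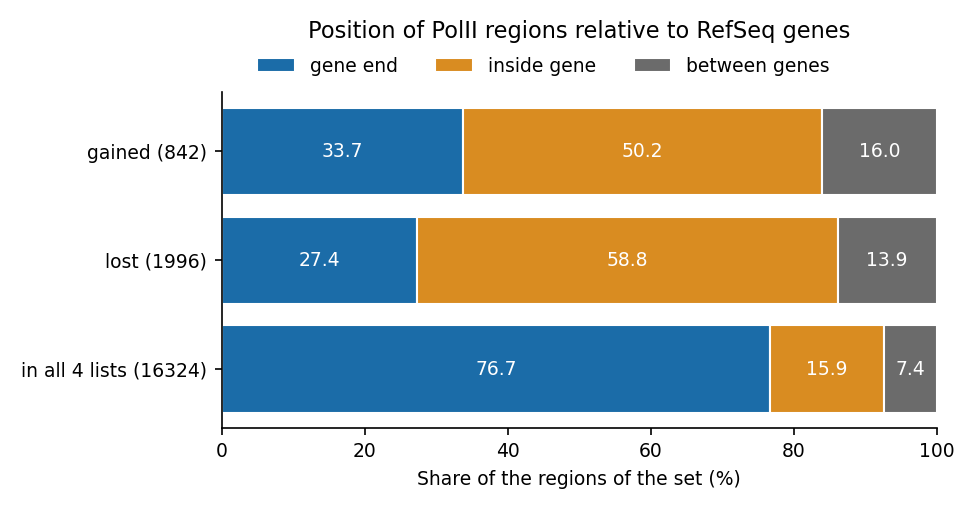
Share of the PolII regions of each set (x axis, percent) at gene ends (within 1 kb), inside genes and between genes, for regions gained after knockdown, lost after knockdown and present in all 4 hairpin lists. The gained set has 33.7% at gene ends, far nearer to the lost set (27.4%) than to the regions of all 4 lists (76.7%).

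The gained regions were also weak peaks in the lists that chose them. The fold is the authors' own value for each peak, a linear ratio to the background that the caller estimated. Percentiles of fold were taken within each list. Folds were not normalised between lists, so folds of different lists given side by side are descriptions. Its median over the members was 2.59 in shHDAC6 list 1 and 2.63 in list 2, against 5.06 and 5.23 over regions in all 4 lists. The median percentile of the members' fold within its list was 16.3 and 16.9. The median −log10 q was 0.697 and 0.730, and 5 members reached a −log10 q of 5 in both lists. When only peaks with a −log10 q of 5 or more were used in all 4 lists, 879 regions were gained, and these were nearly all other regions: 5 of the 842 members stayed, and 874 of the 879 had a weaker shCtrl peak. The 1611 regions just outside the rule, with 1 shHDAC6 list, had a median percentile of 12.9 in that list. The strongest of these lay inside CHSY1 (percentile 40.5), between genes on chromosome 11 (39.8) and inside DRD2 (39.6). Among the weakest members were a region inside SMAD6, with a fold of 1.66 and 1.70, and one at the pseudogene IRS3P, with 1.72 and 1.73.

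**Figure D2:**
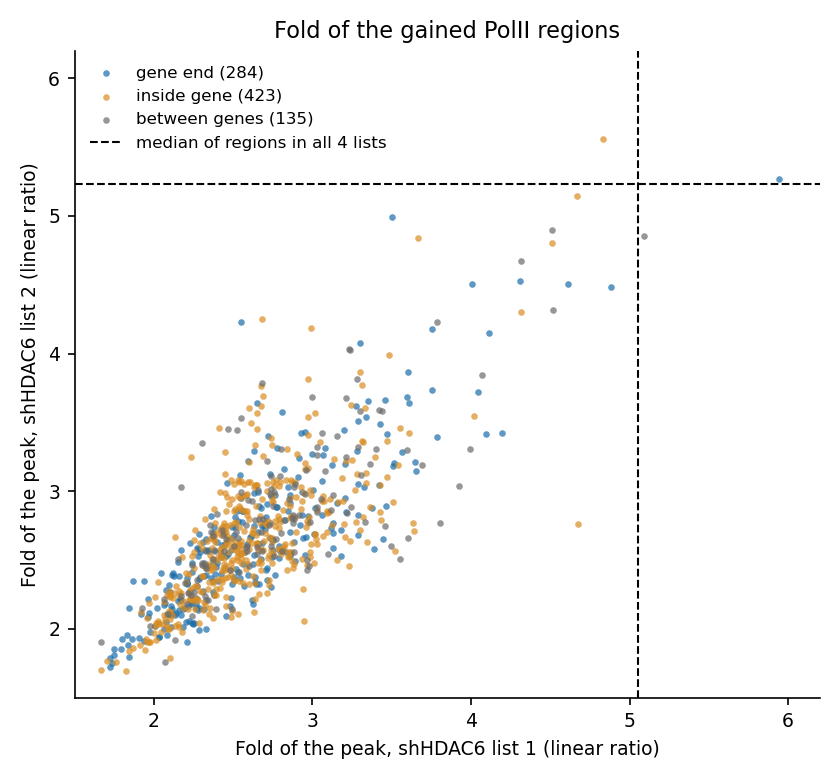
Fold of each gained region's strongest peak in shHDAC6 list 1 (x axis) and list 2 (y axis), both linear ratios over the caller's background, coloured by class. Dashed lines mark the medians of regions in all 4 lists, 5.06 and 5.23, and TUBB8 at 5.95 and 5.27 is the member above both.

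Promoters give the sequence context of the gene-end members. A RefSeq table of promoters (assembly GRCh38.p14, from 250 bases before each annotated start to 50 after) gave 34787 promoters on these chromosomes, and 177 of them overlapped a gained region. The 6 below are printed 5′ to 3′ on the gene's strand, in the order of the mean percentile of the PolII fold in the 2 shHDAC6 lists. They were taken from the 8 highest members whose region overlaps a promoter. Capitals mark matches on either strand to any of 7 searched motifs: TATAAA (the TATA box), CCAAT (the CCAAT box), GGGCGG (the GC box), TGANTCA (the AP-1 site), CACGTG (the E-box), CCGGAA (an ETS-type site) and GGAATG (a TEAD-type site). EPC1, ZNF230 and ZNF136 are among the strongest gene-end members, EVI5L is the strongest of those that also had HDAC6 in all 4 control lists, LOC124903491 has the most GC boxes, and PAK5 is the strongest gene-end member with no missing shCtrl peak number.
EPC1: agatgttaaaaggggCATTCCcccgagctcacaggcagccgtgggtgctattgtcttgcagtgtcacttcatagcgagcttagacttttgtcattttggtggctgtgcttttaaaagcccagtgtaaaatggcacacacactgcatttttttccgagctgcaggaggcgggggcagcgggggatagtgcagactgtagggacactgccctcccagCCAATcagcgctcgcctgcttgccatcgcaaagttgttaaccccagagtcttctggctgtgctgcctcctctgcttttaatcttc
ZNF230: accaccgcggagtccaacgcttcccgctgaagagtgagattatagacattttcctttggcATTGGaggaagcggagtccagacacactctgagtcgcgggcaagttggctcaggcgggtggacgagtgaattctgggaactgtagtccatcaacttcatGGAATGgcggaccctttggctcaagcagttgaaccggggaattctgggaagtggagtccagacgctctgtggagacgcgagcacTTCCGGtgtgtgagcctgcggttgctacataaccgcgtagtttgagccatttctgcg
ZNF136: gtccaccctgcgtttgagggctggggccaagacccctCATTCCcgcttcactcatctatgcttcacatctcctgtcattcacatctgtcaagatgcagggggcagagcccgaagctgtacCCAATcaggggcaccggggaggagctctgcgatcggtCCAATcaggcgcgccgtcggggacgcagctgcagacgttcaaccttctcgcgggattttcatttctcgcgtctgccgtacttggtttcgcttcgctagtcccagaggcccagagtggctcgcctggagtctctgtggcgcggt
EVI5L: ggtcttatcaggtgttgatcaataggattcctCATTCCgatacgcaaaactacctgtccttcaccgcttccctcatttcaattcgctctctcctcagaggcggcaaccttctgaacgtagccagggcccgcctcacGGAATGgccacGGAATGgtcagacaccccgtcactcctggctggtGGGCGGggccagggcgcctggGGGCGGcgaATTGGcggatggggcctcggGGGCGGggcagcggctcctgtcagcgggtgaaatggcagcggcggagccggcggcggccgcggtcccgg
LOC124903491: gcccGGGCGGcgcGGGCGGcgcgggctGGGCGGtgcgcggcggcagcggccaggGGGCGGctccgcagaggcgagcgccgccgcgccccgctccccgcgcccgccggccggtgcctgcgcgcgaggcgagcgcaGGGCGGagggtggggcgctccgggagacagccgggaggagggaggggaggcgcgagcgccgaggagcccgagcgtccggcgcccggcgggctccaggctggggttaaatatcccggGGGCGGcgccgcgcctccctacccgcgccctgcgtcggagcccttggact
PAK5: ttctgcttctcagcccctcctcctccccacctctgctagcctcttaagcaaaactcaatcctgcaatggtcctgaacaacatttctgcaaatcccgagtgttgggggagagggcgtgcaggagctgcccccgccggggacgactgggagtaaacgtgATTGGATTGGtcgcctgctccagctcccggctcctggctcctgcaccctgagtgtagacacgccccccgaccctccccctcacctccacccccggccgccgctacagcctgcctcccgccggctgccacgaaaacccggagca

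The EPC1 window (chr10:32378720-32379019, minus strand) lay wholly inside the gained region, had a G+C share of 53%, and holds 1 CCAAT box and 1 TEAD-type match. The ZNF230 window (chr19:44002707-44003006, plus strand) and the ZNF136 window (chr19:12162846-12163145, plus strand) also lay wholly inside their regions, with G+C shares of 55.3% and 60.7%. EVI5L (chr19:7829968-7830267, plus strand) and LOC124903491 (chr15:51094693-51094992, plus strand) were richer in G+C, at 65.3% and 83.3%. PAK5 (chr20:9839027-9839326, minus strand) had 64% and 2 CCAAT matches that lie side by side. A match describes the letters of the window and does not show a bound factor.

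Over the 177 promoters at gained regions the median G+C share was 65.3%, against 61.2% over 106 promoters at lost regions, 67.0% over 15798 promoters at regions of all 4 lists and 58.7% over all promoters. The median ratio of observed to expected CpG was 0.763, against 0.575, 0.852 and 0.578 in the same order. A GC box was found in 62.7% of the promoters at gained regions, 57.5% of those at lost regions, 75% of those at regions of all 4 lists and 44.9% of all promoters. A TATA box was found in 5.65%, 11.3%, 4.36% and 11.6% of these sets, and an AP-1 site in 3.39%, 7.55%, 3.65% and 7.69%. A CCAAT box was found in 28.8% of promoters at gained regions and 34.6% of all promoters. The ETS-type site was found in 20.3% and 17.2%, the TEAD-type site in 12.4% and 14.1%, and the E-box in 9.04% and 7.24%. Several promoters can belong to 1 gene and overlap, so these shares are descriptions.

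At gene ends, 124 of the 284 members lay at the start of the gene that names them, 48 at its 3′ end and 12 at an end that is neither, and for 100 the table gave no strand. An annotated start of any gene lay within 1 kb of 136 gene-end members (47.9%), against 109 of 546 lost gene-end regions (20.0%) and 75.4% of those in all 4 lists. The naming gene was protein-coding for 199, an lncRNA for 51, a pseudogene for 16 and a transcribed pseudogene for 6. Of 19974 protein-coding genes, 217 (1.09%) had a gained region at an end and 526 (2.63%) a lost one.

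The strongest gene-end member lay at the upstream boundary of TUBB8 (chromosome 10, 76339 to 76971; minus strand), away from the start that the promoter table gives, and TUBB8 is a β-tubulin gene known from oocytes. Its PolII fold was 5.95 in shHDAC6 list 1 and 5.27 in list 2. In parental cells it was 4.73 in Ctrl list 2 and 3.17 in NextA list 2, with no peak in list 1 of either. The nearest shCtrl peak was 57507 bp away, and the missing numbers could not be counted at this chromosome edge. CCZ1 (chromosome 7, 5898513 to 5899025), part of an exchange factor for the GTPase Rab7, had a fold of 4.88 and 4.48 in shHDAC6. In the parental lists, which were called and filtered in another way, it was 7.81 and 6.73 in Ctrl and 6.0 and 5.21 in NextA. This region thus had a PolII peak in both lists of untreated parental cells. EPC1 (chromosome 10, 32378568 to 32379327), a subunit of the TIP60 acetyltransferase complex, had 3.5 and 4.99 in shHDAC6, 4.40 and 5.83 in Ctrl and 5.36 and 3.73 in NextA. Its promoter, shown above, had an ATAC peak in all 3 Ctrl, all 3 NextA, all 3 shCtrl and 2 of 3 shHDAC6 lists.

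Zinc finger genes of the KRAB type, which mostly encode repressors of transcription, appear among the strongest promoters. ZNF230 (chromosome 19, 44002621 to 44003379) had a fold of 3.75 and 4.18 in shHDAC6, 4.41 and 3.12 in Ctrl and 3.24 and 3.67 in NextA. ZNF136 (chromosome 19, 12162806 to 12163517) had 4.20 and 3.42 in shHDAC6, 3.13 and 5.75 in Ctrl and 4.93 and 10.4 in NextA. Both promoters had a peak in all 12 ATAC lists. Of 517 genes with a ZNF symbol, a group chosen after the values were seen, 7 (1.35%) had a gained region at an end and 3 (0.580%) a lost one. The 7 are ZNF124, ZNF136, ZNF155, ZNF230, ZNF391, ZNF575 and ZNF597. The share of 1.35% is near the 1.09% of all protein-coding genes.

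Other leading gene-end members lay at genes of non-coding RNA and at pseudogenes. RNVU1-18, a variant U1 spliceosomal RNA gene, had a fold of 4.01 and 4.50 in shHDAC6. Its parental folds were 19.1 and 3.55 in Ctrl and 18.9 and 2.84 in NextA, very high in list 1 of each and low in list 2. U1 genes have near-identical copies, so reads there may be split between them. The same holds for the pseudogenes PGM5P2 and FTH1P20. The member named by the pseudogene RNU6-905P lay within 1 kb of that gene but did not overlap it. The 2 members at PGM5P2 and FTH1P20 had folds of 4.61 and 4.51, and 4.11 and 4.15. Among small RNA genes, chosen for mention after their values were seen, 6 gene-end members were named by a tRNA gene, and all 6 lie on chromosome 6, from TRP-CGG2-1 (27091876 to 27092317) to TRA-AGC2-2 (28863744 to 28864443). tRNA genes are read by RNA polymerase III, not PolII. Their folds ran from 3.34 and 3.54 at TRI-AAT2-1 down to 2.32 and 2.14 at TRA-CGC2-1. Of 443 tRNA genes in the table, 11 (2.48%) had a gained region within 1 kb, 4 (0.903%) a lost one and 152 (34.3%) one in all 4 lists. The same shares were 1.09%, 2.63% and 62.1% of protein-coding genes and 0.457%, 0.589% and 20.5% of lncRNA genes. The 11 tRNA genes with a gained region lie on chromosomes 1 and 6. tRNA genes lie in clusters, so several can share a region.

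In the 22 lists of genes for signalling, cell state and chromatin, gained regions at an end are to be read against the 1.09% of all protein-coding genes. They reached IFIH1 of 33 interferon and antigen presentation genes, INHBA of 22 TGF-beta and BMP genes, CD44 of 26 invasion and adhesion genes and FCER1G of 20 leukocyte markers. The other lists, which cover AP-1, YAP/TEAD, EMT, epithelial and basal genes, NF-kB, Wnt and Notch, p53, cell cycle, heat shock, hypoxia, tubulin, actin, deacetylases and acetyltransferases, CTCF and cohesin, receptor tyrosine kinases, autophagy and neuron markers, had none. CD44, a hyaluronan receptor that is abundant in this line, had a fold of 2.10 and 2.32 in shHDAC6 at chromosome 11, 35138827 to 35139483. Its parental folds were 5.62 and 3.17 in Ctrl and 4.28 and 5.72 in NextA. The CD44 region lay at the gene's start and had an ATAC peak in all 3 Ctrl and all 3 NextA lists but in none of the 6 hairpin lists. The region shared by IFIH1, a sensor of double-stranded RNA, and its neighbour GCA (chromosome 2, 162317822 to 162318831) had 2.52 and 2.86 in shHDAC6, 3.77 and 5.86 in Ctrl and 3.23 and 4.95 in NextA. INHBA, which encodes an activin subunit, had 2.25 and 2.04 in shHDAC6, and in parental cells a peak in Ctrl list 2 (3.38) and NextA list 2 (3.45). Its region was open in all 12 ATAC lists.

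Inside genes, 307 of the 423 members lay in a protein-coding gene with a start in the promoter table, at a median of 12526 bp from that start (lost regions: 12500 bp). Within 5 kb of it lay 76 of them (24.8%), against 24.9% of lost regions and 55.7% of regions in all 4 lists. At 246 of the 307 (80.1%) the host's start had a PolII peak in all 4 hairpin lists, and at 39 (12.7%) in none. The share with all 4 was 92.8% for lost regions, 85.2% for regions in all 4 lists and 64.8% over all 15812 protein-coding genes with a start in the table. Of 19974 protein-coding genes, 373 (1.87%) held a gained region inside and away from their ends, and 19 genes held 2 members of any class, among them EIF3B, INTS1, NFIC, SMAD6, TEAD1 and TOP3B.

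The strongest member inside a gene lay in MYOM2 (chromosome 8, 2127411 to 2127882), which encodes a protein of the muscle sarcomere. Its fold was 4.83 and 5.56 in shHDAC6, 4.86 and 3.35 in Ctrl and 3.64 and 3.41 in NextA. HDAC6 CUT&Tag was near the top of its lists there, with a fold of 5.18 and 5.54 (percentiles 98.8 and 98.4), but neither HDAC6 ChIP list of Ctrl cells had a peak in this region. ATAC peaks were present in all 3 Ctrl, all 3 NextA, 2 of 3 shCtrl and no shHDAC6 lists. SYT14, of the synaptotagmin family (chromosome 1, 210052042 to 210052705), had 4.67 and 5.14 in shHDAC6. Its parental peaks were in list 2 only, at 3.95 in Ctrl and 4.33 in NextA. DDR2, a collagen receptor tyrosine kinase (chromosome 1, 162696195 to 162697129), had 4.51 and 4.81 in shHDAC6, and 3.12 and 2.26 in list 2 of Ctrl and NextA. The region in DDR2 lay 63731 bp from the gene's start, where none of the 4 hairpin lists had a peak, and it was open in all 12 ATAC lists. ARID5B, a DNA-binding cofactor (chromosome 10, 62048899 to 62049648), had 4.31 and 4.30 in shHDAC6, 3.03 and 2.35 in Ctrl and 3.35 and 4.78 in NextA. This region contains an annotated internal start of ARID5B. TRPM1, ABR, SLC26A9-AS1, PLPPR1, LOC124903006 and MAMDC2 were the next in order, with folds of 2.76 to 4.84 over both lists.

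Members inside genes of the 22 lists were TEAD1, TEAD3 and TEAD4 of 13 YAP/TEAD factors and targets (23.1%, against 1.87% of all protein-coding genes), HDAC4 and BRD9 of 30 deacetylase, acetyltransferase and reader genes, MAU2 and LMNB2 of 17 chromatin architecture genes, and 1 gene each of 7 other lists. These 7 are SMAD6, TCF7L2, CDKN2B, SIRT2, CTTN, EPHB4 and LAMP1. TEAD proteins are the DNA-binding partners of the coactivator YAP. The lists were chosen with earlier results of these data known, so the share of TEAD genes is a description. It was not matched for gene length or for PolII. Of the 13 genes, 11 (84.6%) had a region in all 4 lists at an end, against 62.1% of all protein-coding genes. TEAD1 held 2 members, with folds of 2.67 and 3.77 at chromosome 11, 12746625 to 12747594, and 2.46 and 2.64 at 12845722 to 12846146. The former was open in 3 of 3 lists of Ctrl, NextA and shCtrl ATAC and of shHDAC6 ATAC, and the latter had no peak in any other list. TEAD3 and TEAD4 had 2.50 and 2.37, and 2.32 and 2.18. CTTN, which encodes the actin-binding HDAC6 substrate cortactin, had 2.39 and 2.25, with ATAC peaks in all 3 Ctrl and all 3 NextA lists and in no hairpin list. SIRT2, the other known tubulin deacetylase, had 2.63 and 2.70 and no peak outside the shHDAC6 PolII lists.

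Between genes, 135 members lay 1195 to 1026649 bp from the nearest protein-coding gene, with a median of 20420 bp. Members of this class are named by that gene, and genes of other types may lie nearer. They were the stronger class, with a median fold of 2.74 and 2.77, against 2.56 and 2.63 inside genes. The strongest member between genes, on chromosome 13 (49847739 to 49848321, nearest protein-coding gene KPNA3), had 5.09 and 4.86 in shHDAC6. In parental cells it had 4.40 in Ctrl list 2 and 3.18 in NextA list 2. The next, on chromosome 7 (66413396 to 66414103, nearest protein-coding gene TPST1), had 4.51 and 4.90 in shHDAC6 and 2.92 in Ctrl list 2. A region on chromosome 6 (129767189 to 129767688, nearest protein-coding gene ARHGAP18) had 4.32 and 4.67 in shHDAC6, 10.3 in Ctrl list 2 and 5.87 in NextA list 2. This region and the one near TPST1 are 2 of the 5 members with a −log10 q of 5 or more in both shHDAC6 lists, and the other 3 lie near ZNF706, at SNAI3 and inside ANK1. The region near ARHGAP18 also had no missing peak number in either shCtrl list, and its nearest shCtrl peak was 56052 bp away. Over all 842 members the median distance to the nearest shCtrl peak was 15076 bp, and 65 members (7.72%) lay within 1 kb of one.

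The 79 members with no missing shCtrl number differ in make-up: 21 lay at gene ends, 31 inside genes and 27 between genes. After the region near ARHGAP18, the highest were PAK5 (3.61 and 3.64), a brain-enriched p21-activated kinase, a region near ADGRL1 (3.44 and 3.58), one inside LOC107986614 (3.55 and 3.46) and one at ITGB7 (3.28 and 3.62), a leukocyte integrin subunit. The region at ITGB7 lay 1146 bp from the nearest shCtrl peak. In this subset 8.86% and 62.0% had a peak in PolII Ctrl lists 1 and 2 and 10.1% and 65.8% in NextA lists 1 and 2.

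The state of the gained regions in lists that did not choose them was compared with that of lost regions and of regions in all 4 lists. Regions in all 4 lists were wider (median 1593 bp against 596.5 bp) and more often at gene ends (76.7% against 33.7%). Shares over whole sets were not matched for width or class. Gained regions had a PolII peak in 15.1% and 55.3% of cases in Ctrl lists 1 and 2 and in 23.5% and 67.8% in NextA lists 1 and 2. The lost regions had 16.5% and 28.5% in Ctrl and 32.1% and 53.5% in NextA. The parental lists numbered 1 were called on q with complete numbering, and those numbered 2 on p with 88.5% and 75.5% of numbers kept. The share moved more with the list number than with the inhibitor. At least 1 Ctrl list had a peak at 489 members (58.1%), both Ctrl lists at 104 (12.4%), all 4 parental lists at 85 (10.1%) and no parental list at 199 (23.6%). Over all merged PolII regions these shares were 76.3%, 49.2%, 47.7% and 13.5%, and 97.0% of regions in all 4 hairpin lists had a peak in a Ctrl list. Of gene-end members, 207 of 284 (72.9%) had a peak in a Ctrl list, as had 100 of 135 between genes (74.1%) and 182 of 423 inside genes (43.0%). Over all merged regions of the same class these shares were 90.7%, 75.1% and 49.2%, so the members between genes were near that background. Parental and hairpin libraries differ in the hairpin and in how their lists were called, and the part of each in these shares was not tested.

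**Figure D3:**
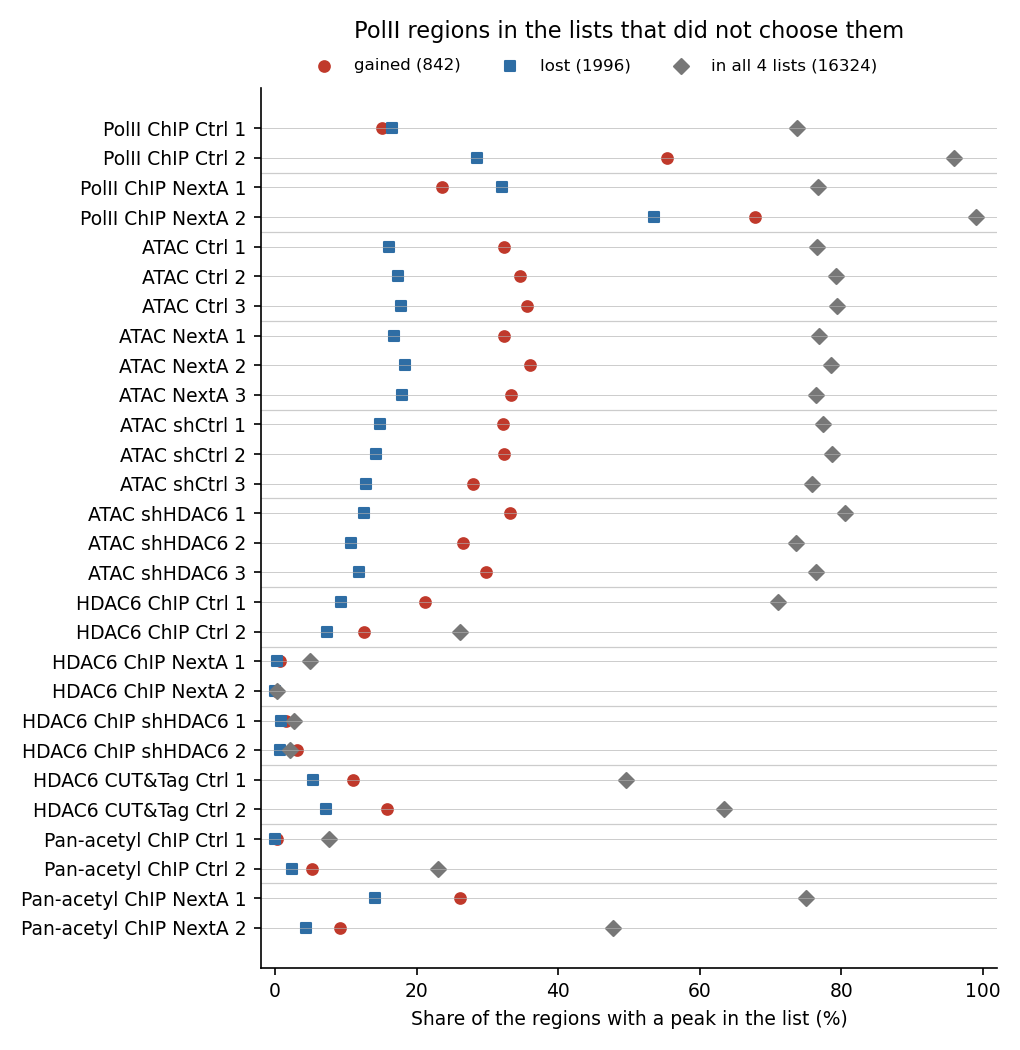
Share of PolII regions (x axis, percent) with a peak of at least 1 bp overlap in each of the 28 lists that did not choose them (y axis), for gained, lost and shared regions. The gained set lies below the shared set in every list except HDAC6 ChIP shHDAC6 2, and above the lost set in every ATAC and CUT&Tag list.

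With NextA, PolII was gained at 22 members (2.61%, both NextA lists and no Ctrl list). That is near the 1.98% of all merged PolII regions and below the 6.51% of lost regions (130 of 1996). PolII was lost with NextA at 1 member (0.119%, against 0.0434% of all merged regions). The 22 were led by COG1, MRPS25, CCDC97 and ADD1, and the 1 lost lay near TMCC2. The leading members lay 948, 1986, 5643 and 642 bp from the nearest shCtrl peak, in that order. Over lists, the share of members with a PolII peak was 35.2% ± 28.5 in Ctrl and 45.7% ± 31.3 in NextA (SD, n = 2 each). The difference of 10.5 percentage points gave an exact two-sided permutation p of 0.667 (adjusted 0.889 over 10 tests). The SD is mostly the gap between list 1 and list 2, and within each list number the share was higher in NextA (15.1% to 23.5% and 55.3% to 67.8%). An exact sign-flip permutation test within list numbers gave p = 0.5, the lowest that 2 pairs allow, and 2 lists against 2 cannot go below 0.33. With a −log10 q of 5 or more in the parental lists the difference was −3.33 points, in the other direction.

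Accessible chromatin at the gained regions did not differ between hairpins beyond the spread between the lists as deposited. An ATAC peak was present at 32.2%, 32.3% and 27.9% of members in the 3 shCtrl lists and at 33.1%, 26.5% and 29.8% in the 3 shHDAC6 lists. The ranges overlapped. The means were 30.8% ± 2.50 and 29.8% ± 3.33 (SD, n = 3 each), a difference of −0.990 percentage points (exact two-sided permutation test over lists, p = 0.7, adjusted 0.889; 3 lists against 3 cannot go below 0.1). Taken within each list as the difference from regions in all 4 lists, the change was −0.512 points (exact permutation p = 0.6, adjusted 0.889), and as the difference from lost regions it was 1.26 points (exact permutation p = 0.5, adjusted 0.889). At gene ends the shares were 37.8% ± 4.68 and 38.3% ± 2.99, inside genes 21% ± 0.895 and 20.6% ± 3.02, and between genes 46.9% ± 5.2 and 41.0% ± 5.46 (SD, n = 3 each). Their differences were 0.469, −0.394 and −5.93 points, with an exact permutation p of 0.8, 0.8 and 0.3 (each adjusted to 0.889). With ATAC lists of equal length the gene-end difference was 3.99 points, and all 3 shHDAC6 lists lay above all 3 shCtrl lists (exact permutation p = 0.1, unadjusted and the lowest possible). A p that misses the threshold does not show that the shares are equal.

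**Figure D4:**
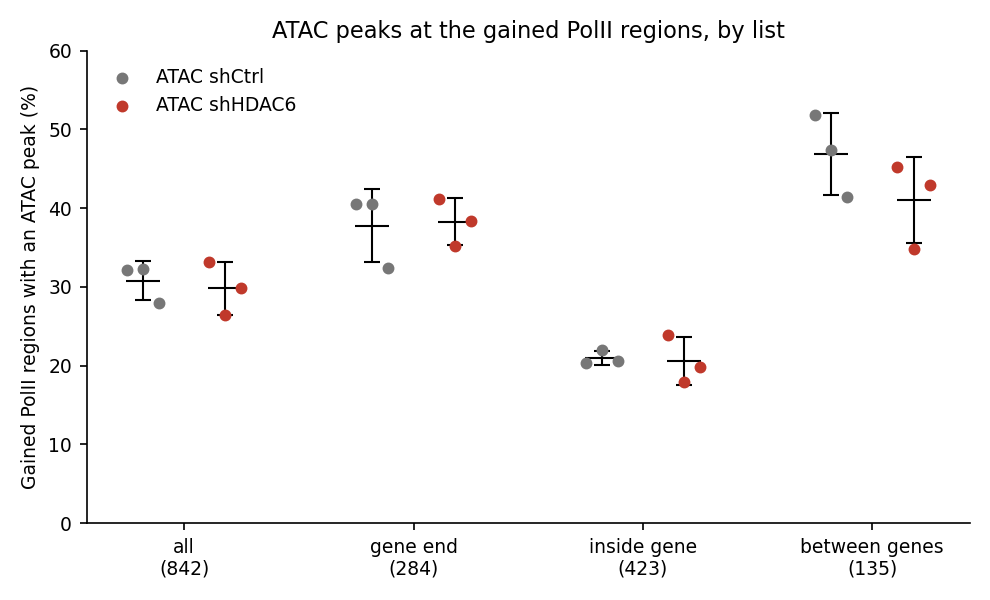
Share of gained PolII regions with an ATAC peak (y axis, percent) in each of the 3 shCtrl and 3 shHDAC6 lists (points), for all members and by class. Horizontal bars are means and error bars SD over 3 lists, and the ranges of shCtrl and shHDAC6 overlap in every class.

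By region, 146 members (17.3%) had an ATAC peak in all 6 hairpin lists and 457 (54.3%) in none. Over all merged PolII regions these shares were 43.1% and 33.1%. The latter share was 67.4% inside genes, 45.4% at gene ends and 31.9% between genes, against 76.3% over lost regions. A gain of ATAC after knockdown (all 3 shHDAC6 lists and no shCtrl list) was called at 1 member (0.119%, against 0.217% of all merged PolII regions), inside the lncRNA gene LOC105370969 on chromosome 15. A loss was called at 3 (0.356%, against 0.347%), near TLN2, inside AMPD3 and at LOC105372594. Both shares are near the background. With the inhibitor, ATAC was gained at 1 member (0.119%, against 0.0592%), at NCALD, and lost at 1 (0.119%, against 0.0631%), near DISP3. The share with an ATAC peak was 34.2% ± 1.70 in Ctrl and 33.9% ± 1.89 in NextA (SD, n = 3 each; difference −0.277 points, exact permutation p = 1, adjusted 1).

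**Figure D5:**
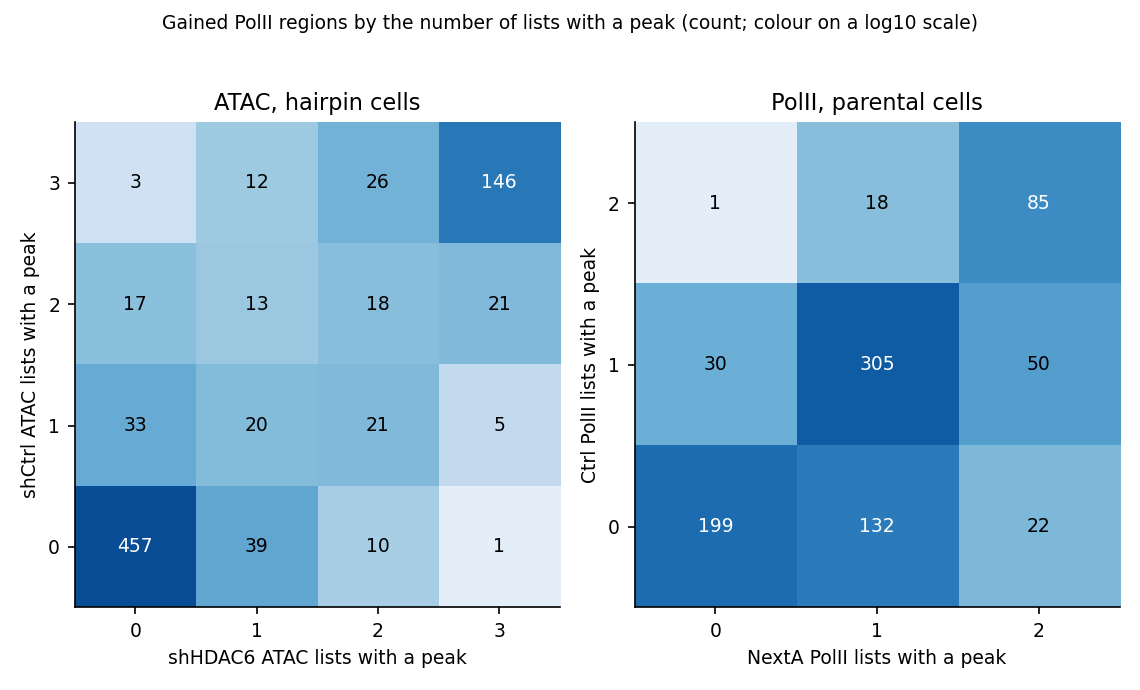
Number of gained PolII regions by how many lists of each group had a peak there. Left, ATAC in shHDAC6 (x axis) and shCtrl (y axis) lists; right, PolII in NextA (x axis) and Ctrl (y axis) lists of parental cells. The largest ATAC cells are 457 with no list and 146 with all 6, and the largest PolII cell is 305, with 1 list of each group.

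HDAC6 peaks in control cells were less frequent at gained regions than at regions in all 4 lists and more frequent than at lost regions, as a description with no test. The sets also differ in width and class, and the shares were not matched for either. A peak was present at 21.1% of members in the Ctrl ChIP list with the CST antibody and at 12.6% in the one with the Novus antibody, and at 11.0% and 15.8% in the CUT&Tag lists. Lost regions had 9.27%, 7.36%, 5.36% and 7.21% in the same lists, and regions in all 4 PolII lists 71.1%, 26.2%, 49.6% and 63.4%. All 4 control lists had HDAC6 at 5 members (0.594%), all at gene ends: EVI5L, OSBPL2, ACVR1C, DACT3 and FGF18. None of the 4 had it at 496 members (58.9%). Over all merged regions 6.96% had all 4 and 36.4% none. In shHDAC6 cells, where Novus was used in both lists, 1.54% and 3.09% of members had a peak, 38 (4.51%) in at least 1 list, against 4.03% of all merged regions. With NextA the share was 0.713% with CST and 0.119% with Novus, against 21.1% and 12.6% in Ctrl. The difference of means was −16.4 points (SD over lists 6.05 in Ctrl and 0.420 in NextA, n = 2 each, exact permutation p = 0.33, the lowest that 2 against 2 allows, adjusted 0.889). In each group the CST list was called on q and the Novus list on p. The SD is thus not a spread between replicates, and the test leaves out the pairing by antibody. With lists of equal length, and with a −log10 q of 5 or more, this difference was −0.178 points (exact permutation p = 1 each). The NextA Novus list holds 235 peaks in all, so at equal length each of these lists was cut to 235. A −log10 q of 5 or more left 654 and 26 peaks in Ctrl and 633 and 1 in NextA. With so few peaks both groups have shares near 0, so these settings cannot decide whether the difference holds. The names of the peaks in the NextA Novus list start like those of the shCtrl PolII lists, and those of CUT&Tag list 2 like a hairpin control. Each was kept under its label.

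Acetylated histone H3 was called at 0.238% and 5.23% of members in the Ctrl lists and at 26.1% and 9.14% in the NextA lists. The mean share was 2.73% ± 3.53 in Ctrl and 17.6% ± 12 in NextA (SD, n = 2 each). The difference was 14.9 points (exact permutation p = 0.33, the lowest possible, adjusted 0.889). With lists of equal length it was 0 points and with a −log10 q of 5 or more 0.653 points. Ctrl list 1 holds 1418 peaks and NextA list 1 28473, so at equal length every pan-acetyl list was cut to 1418. A −log10 q of 5 or more left 15 and 202 peaks in Ctrl and 3854 and 75 in NextA. Such short lists leave little room for a difference. A gain with the inhibitor in both NextA lists and no Ctrl list was called at 34 members (4.04%), against 16.3% of all merged PolII regions, 24.5% of regions in all 4 lists and 0.701% of lost regions (14 of 1996). Of the 34, 25 lay at gene ends, among them ZNF230, ZNF155, KRR1 and the tRNA genes TRQ-CTG6-1 and TRP-CGG2-1. No pan-acetyl list had a peak at 566 members (67.2%), against 39.6% of all merged regions.

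In shCtrl lists, members at a gene's start and members between genes had similar ATAC shares. In shHDAC6 lists the shares between genes were lower, as a description with no test. At the 124 members at the start of the naming gene, ATAC shares were 41.9% to 54.0% in shCtrl and 46.8% to 56.5% in shHDAC6 lists, HDAC6 ChIP 40.3% and 27.4% in Ctrl, and pan-acetyl 43.5% and 20.2% in NextA. Their PolII share was 27.4% and 85.5% in Ctrl and 32.3% and 89.5% in NextA. At the other 160 gene-end members the PolII shares were 21.9% and 58.8% in Ctrl and 33.1% and 76.9% in NextA, and the ATAC shares 25% to 31.2% in shCtrl. Between genes the ATAC shares were 41.5% to 51.9% in shCtrl and 34.8% to 45.2% in shHDAC6 lists. HDAC6 ChIP was at 29.6% and 6.67% of these members in Ctrl, and PolII at 9.63% and 72.6% in Ctrl. No peak in any of the 28 other lists was found at 110 members (13.1%), against 391 of the 1996 lost regions (19.6%). Of the 110, 84 lay inside genes, 20 at gene ends and 6 between genes.

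Gained regions were spread over all 23 chromosomes used. Chromosome 1 held 79, chromosome 19 held 78 and chromosome 17 held 63. As a share of the chromosome's merged PolII regions, the members ranged from 2.38% on chromosome 14 to 4.88% on chromosome 9, around the 3.32% of all regions.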

How the data were processed

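Peak lists of PolII, HDAC6 and pan-acetyl ChIP-seq, HDAC6 CUT&Tag and ATAC-seq were used as deposited, in hg38 (GRCh38), 1 list per library. Per the submitters' processing notes, the tools included MACS2 2.2.7.1 and ChIPseeker 1.28.2, with Bowtie2 2.4.4 and SAMtools 1.13, and also Trim Galore 0.6.7 and deepTools 3.5.1. Each deposited line holds a score from the authors' caller (10 times a −log10 p or q, not used further), a fold, which is a linear ratio over background, and a −log10 p and −log10 q. Gaps in the peak numbers show that peaks were removed after calling in several lists, and how this was done is not given in the sources used here. Read depth is unknown, so no interval that needs it is given.

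Peaks of the 4 hairpin PolII lists on chromosomes 1 to 22 and X were merged where they overlapped by at least 1 bp, and a list counted as present at a region with an overlap of at least 1 bp. Gene positions came from a RefSeq table (GRCh38.p14, 59098 genes). Shares of members with a peak were compared between groups of lists with exact two-sided permutation tests, adjusted by Benjamini-Hochberg over 10 tests at a threshold of 0.05. The merging, counting and tests were checked on simulated peaks (Python 3.11.15, numpy 2.4.6, pandas 2.3.3, scipy 1.17.1, matplotlib 3.10.9).

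Regions named in the text are, per class, those of highest mean percentile of fold in the shHDAC6 lists (12 at gene ends, 10 inside genes, 6 between genes), up to 8 with gained ATAC, the widest 4, members of the gene lists with a gained region at an end, the 3 weakest, the 3 strongest just outside the rule, and HDAC6. Others were chosen after their values were seen. Values of a few such regions are not reported here. The members and gene lists were chosen with earlier results of these data known. Same-numbered ATAC lists did not deviate together in hairpin cells (correlations −0.00282, −0.0551 and −0.0135) while in parental cells every same-number correlation was over 0.1 (0.584, 0.217 and 0.221), although lists 2 and 3 correlated as much across numbers (0.222 and 0.249), so a pairing is not clear. Main tests are unpaired. The alternatives were other peak thresholds, list lengths, merging, overlaps, windows, gene sets and left-out lists.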

Additional observations from a re-analysis of the deposited data

How the results depend on the processing

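Under alternative settings 160 recomputed values were labelled the same, 20 changed sign and 17 moved. The same means a difference of the same sign, a count within 1.5 times, or a promoter feature within the interval around its main value. Many that kept their sign changed in size: for NextA against Ctrl, at equal length of the tested lists the HDAC6 difference went from −16.4 to −0.178 points and the ATAC difference from −0.277 to −4.35, and with members from peaks of a −log10 q of 5 or more the PolII difference went from 10.5 to 1.71. Equal length cut the HDAC6 lists to 235 peaks each, which leaves little room for a difference. At these numbers of lists no test could pass the threshold. With peaks of a −log10 q of 5 or more, 196 regions were lost and 10835 were in all 4 lists, and the gained regions divided into 625 at gene ends, 168 inside genes and 86 between genes. At equal list length 1208 regions were lost. Without missing peak numbers in the other arm, an alternative chosen after seeing the data, 79 were gained and 437 lost. A window of 3 kb gave 428 gained regions at gene ends, and protein-coding genes alone gave 243 between genes. Leaving out 1 hairpin PolII list gave 992 to 1671 gained and 2396 to 3554 lost regions.

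The differences in ATAC share between shHDAC6 and shCtrl, in percentage points, changed sign or moved as follows. At gene ends the difference was −1.39 with members from peaks of a −log10 q of 5 or more, −0.0838 with members from lists of equal length and −0.469 in windows of 400 bp (chosen after seeing the data). Between genes it was 3.10 with members from peaks of a −log10 q of 5 or more and 0 with members that have no missing number. With tested lists of equal length it was 1.31 over all members, 3.99 at gene ends and 1.10 inside genes, and with a −log10 q of 5 or more in the tested lists 0.552 inside genes. For NextA against Ctrl, the ATAC difference was 0.148 with members from lists of equal length and 1.39 with a −log10 q of 5 or more in the tested lists, the PolII difference was −3.33 with that threshold, and the pan-acetyl difference was 0 with tested lists of equal length. At equal length the pan-acetyl lists held 1418 peaks each. The cause of these changes was not tested. Among promoters whose whole window lies in a gained region, 2.70% held TATAAA.

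Leaving out 1 tested list moved the hairpin ATAC difference between −2.65 and 0.673 for all members, −1.20 and 0.103 relative to regions in all 4 lists, −2.23 and 2.00 at gene ends, and −2.05 and 0.906 inside genes. For NextA it moved between −1.33 and 0.515 for ATAC and −11.7 and 32.6 for PolII. With the replicate number as a replicate block the differences are the same by construction (−0.990 points for ATAC over all members, exact sign-flip permutation p = 1), and no call changed.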
